A study of Mus musculus with 2 samples.

Results

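10 cell surface markers of stromal and mesenchymal stem cells were followed in RNA sequencing of intestinal subepithelial myofibroblasts (ISEMFs), the spindle-shaped cells that lie beneath the epithelium of the gut. The 10 genes, Cd34, Cd81, Pdpn, Thy1, Ly6a, Ly6c1, Eng, Nt5e, Dpp4 and Mcam, were taken by symbol from the 37309 genes of the deposited table. 1 library came from supportive ISEMFs, grown from the small intestine of 5-day-old C57BL/6 neonates, and the other from non-supportive ISEMFs, grown by the same isolation from 2-month-old adult mice of that strain. The cells were wild type and were expanded by passaging from digested tissue without a sort, so each library holds the RNA of a whole culture. Each population had 1 library, so age and population cannot be told apart, no difference has a replicate check, and no test between the populations could be made. The table's name attaches P16 to the supportive and P3 to the non-supportive library. The labels do not explain these tags, and if they are passage numbers, then time in culture cannot be told apart from population either.

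These proteins are the handles by which stromal cells are recognised and sorted. Thy1, Eng and Nt5e make up the classical positive panel for cultured mesenchymal stromal cells in humans, whereas Cd34 is used there as a marker such cells should lack, and in mouse Ly6a (Sca-1) is added as a progenitor marker. In the gut wall Cd34, Cd81 and Pdpn mark fibroblasts around and below the crypts, and Mcam is known from pericytes, smooth muscle and endothelium. The members belong to different molecular classes. Thy1, Ly6a, Ly6c1 and Nt5e are held in the membrane by a glycolipid (GPI) anchor, Cd81 spans the membrane several times, and the others cross it once.

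Levels are given as RPKM, the reads on a gene scaled to its exon length and to the size of the library, which allows genes of unequal length to be compared. Reads on genes numbered 50674472 in supportive and 49615497 in non-supportive ISEMFs, of which mitochondrial genes took 14.6% and 7.85%. The myofibroblast markers Acta2 and Vim were abundant in both, while Des, the gene of desmin, was at an RPKM of 0.575 in supportive and 3.402 in non-supportive ISEMFs, 5.92-fold lower in the former (5.05 to 6.98). Their summed RPKM was 1233 in supportive and 1821 in non-supportive ISEMFs. Intervals are exact 95% Clopper-Pearson intervals from the reads and cover counting error only. A log2 ratio is that of RPKM + 0.1 in supportive over non-supportive ISEMFs, and a gene was counted as past 2-fold when this ratio reached 1 or -1 and the gene was expressed, that is, had an RPKM of 1 or more in one or both libraries.

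The markers did not move as a block. Cd34 was far lower in supportive ISEMFs, Thy1 and Ly6a were higher there, and Cd81, Mcam, Pdpn and Eng differed by less than 2-fold. Of the 10 members, 7 were expressed, and these 7 reached an RPKM of 1 in both libraries, while Ly6c1, Nt5e and Dpp4 stayed below it. Of the 7, 3 were past 2-fold (42.9%), beside 18.3% of all 10086 expressed genes. By direction, 2 members were higher, where 9.01% of all genes were, and 1 was lower, where 9.27% were. The same shares are the background for the gene lists below, which were chosen with earlier results of these data known. The median log2 ratio of the 7 was -0.45, beside -0.07 for all 10086 genes. The median size of the log2 ratio, without its sign, was 0.59 for the members and 0.42 for all genes, whose quartiles were 0.19 and 0.78. A count of 3 among 7 genes is small, and nothing particular to these markers can be read from it.

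**Figure D1:**
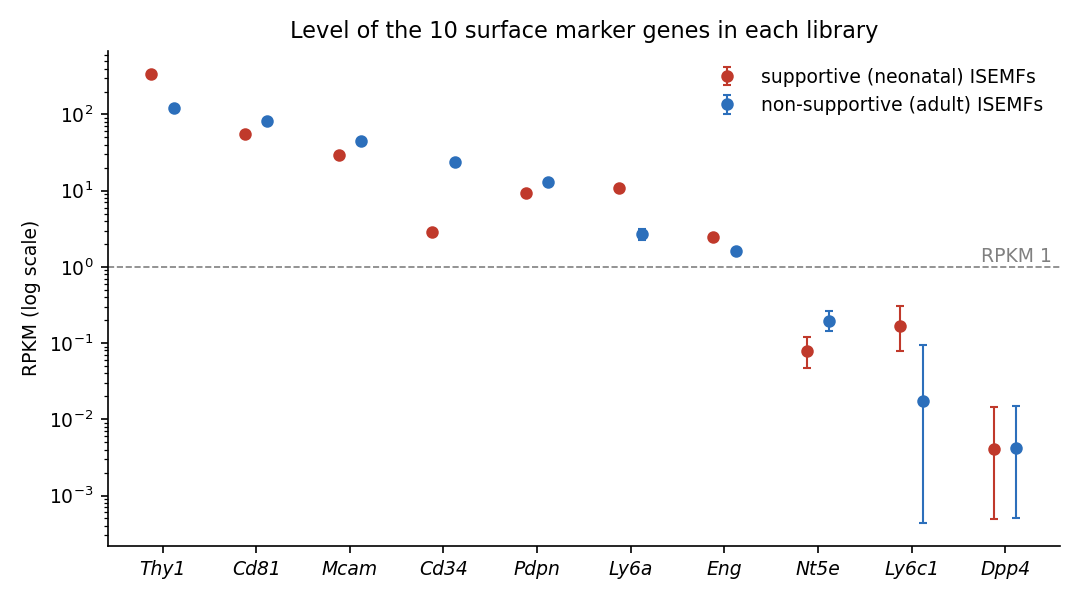
RPKM of the 10 markers (log scale) in supportive (neonatal) and non-supportive (adult) ISEMFs, 1 library each, with bars for exact 95% intervals from the reads and a dashed line at an RPKM of 1. Thy1 is the highest marker in both libraries at 344 and 119.8, Cd34 is at 2.83 and 23.9, and Ly6c1, Nt5e and Dpp4 lie below an RPKM of 1 in both.

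Thy1, a GPI-anchored immunoglobulin-fold protein of fibroblasts, neurons and T cells, was the most abundant marker in both libraries. The locus spans 43851467 to 43856662 on the plus strand of mm9 chromosome 9, and its exons form 4 blocks. The supportive library held 42652 Thy1 reads, an RPKM of 344, and the non-supportive library 14439 reads, an RPKM of 119.8. That placed it at rank 30 of 22379 protein-coding genes in supportive ISEMFs and at rank 129 in non-supportive ISEMFs. The level in supportive ISEMFs was 2.87-fold higher (2.82 to 2.93), a log2 ratio of 1.52. The size of this difference exceeded that of 90.1% of all expressed genes. Thy1 therefore separated the libraries while being among the most abundant transcripts of both.

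Thy1 binds integrins and syndecan 4 on neighbouring cells. Of the 4 listed partners, all reached an RPKM of 1 in either library, 0 were past 2-fold higher and 1 was lower. The integrin subunits Itgb3 and Itgav were at an RPKM of 15.7 and 37.5 in supportive and 15.2 and 44.4 in non-supportive ISEMFs. The syndecan Sdc4 was at 68.3 and 39.3, which is 1.74-fold higher in supportive ISEMFs (1.69 to 1.79). The partner past 2-fold was Itgam, an integrin subunit of myeloid cells, with 0 reads in supportive and 1070 in non-supportive ISEMFs.

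Cd34, a heavily glycosylated sialomucin of progenitor cells, vascular endothelium and tissue fibroblasts, showed the largest difference of the expressed members. On mm9, chromosome 1 holds it at 196765015 to 196787486 on the plus strand, in 8 exon blocks. Supportive ISEMFs gave 804 reads, an RPKM of 2.83, against 6607 reads and 23.9 in non-supportive ISEMFs. Cd34 was 8.46-fold lower in supportive ISEMFs (7.86 to 9.11), a log2 ratio of -3.04, and 96.9% of all expressed genes differed by less. Its rank among protein-coding genes was 5831 in supportive and 1058 in non-supportive ISEMFs. The RPKM of Thy1 was 122 times that of Cd34 in supportive ISEMFs and 5.01 times in non-supportive ISEMFs.

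The relatives of Cd34 did not share its difference at a comparable level. Of 4 listed sialomucins, 1 reached an RPKM of 1. This was Cd164 at 75.3 in supportive and 53.9 in non-supportive ISEMFs, a difference of 1.40-fold in the other direction (1.37 to 1.42). Podocalyxin (Podxl), the closest relative of Cd34, was at 0.0916 and 0.454, below the minimum in both libraries.

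Cells other than fibroblasts can carry Cd34, and their markers were read beside it. Of 11 blood and immune genes in the table, 7 reached an RPKM of 1 and all 7 were past 2-fold lower in supportive ISEMFs, with a summed RPKM of 6.86 in supportive and 122.6 in non-supportive ISEMFs. Lyz2, at 6.31 in supportive and 72.7 in non-supportive ISEMFs, made most of both sums. Ptprc, which encodes the pan-leukocyte antigen CD45, had 0 reads in supportive and 879 in non-supportive ISEMFs, and the myeloid adaptor Tyrobp was at an RPKM of 0 and 29.97. In this bulk RNA fewer cells of a type and less RNA per cell cannot be told apart, and the part of immune cells in the Cd34 difference was not tested. Of the markers of blood endothelium, the other classical source, Pecam1 had 0 and 8 reads, Cdh5 had 0 and 7, and Tie1 and Cldn5 had 0 in both. Kdr had 2 and 88 reads, Tek 65 and 2, and Plvap 33 and 1. The 11 endothelial genes summed to an RPKM of 4.89 in supportive and 0.322 in non-supportive ISEMFs. Nearly all of the first sum was the transcription factor Erg, at 4.50 against 0.0134, and without Erg the sums were 0.390 and 0.309. The part of endothelial cells in the Cd34 difference was not tested.

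The promoter of Cd34 is shown beside that of Mcam because Cd34 differed most of the expressed members and Mcam, of a higher level, has the member window richest in CG dinucleotides. The RefSeq promoter table held windows for 8 of the 10 members, without Thy1 and Ly6a, and each window runs from 250 bases before to 50 bases after a start site. Both windows are given 5′ to 3′ on the plus strand of GRCm38.p6, a later build than that of the files, with each CG in capitals. The Cd34 window is chr1:194938571-194938870 and the Mcam window is chr9:44134408-44134707.
Cd34: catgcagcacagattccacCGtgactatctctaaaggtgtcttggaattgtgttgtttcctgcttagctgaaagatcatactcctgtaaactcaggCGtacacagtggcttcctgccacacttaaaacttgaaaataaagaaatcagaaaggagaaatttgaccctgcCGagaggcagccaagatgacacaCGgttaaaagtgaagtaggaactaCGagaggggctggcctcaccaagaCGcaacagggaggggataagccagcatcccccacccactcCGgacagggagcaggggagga
Mcam: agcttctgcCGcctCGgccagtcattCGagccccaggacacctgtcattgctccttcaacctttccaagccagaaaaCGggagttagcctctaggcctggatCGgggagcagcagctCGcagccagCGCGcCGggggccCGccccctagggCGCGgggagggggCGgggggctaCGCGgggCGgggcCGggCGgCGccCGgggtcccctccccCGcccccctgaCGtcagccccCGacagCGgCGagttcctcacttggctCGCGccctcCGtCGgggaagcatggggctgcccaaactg
The Cd34 window holds 7 CG dinucleotides, the median of all 32851 promoter windows, and the Mcam window holds 29. GC content was 72.7% for Mcam, beside a median of 52.7% over all windows. Cd81 and Nt5e had 23 each, Pdpn 7, Eng 6 and Dpp4 4, and the Ly6c1 windows had 1 and 0. High CG content thus went with high levels in Cd81 and Mcam and with a level below an RPKM of 1 in Nt5e.

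3 motifs were searched on both strands of the same windows. They were the interferon-gamma activated site (TTCNNNGAA), the core of the interferon-stimulated response element (GAAA, any 2 bases, GAAA) and the AP-1 site (TGANTCA). Matches of the first pair can share their GAA letters. The motifs occur in 8.30%, 3.44% and 7.81% of all promoter windows. Among the 9 member windows the only match was the response element core in that of Dpp4, which had 2 reads in each library. No match lay in the windows of the other 7 members with an entry.

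Ly6a and Ly6c1 belong to the Ly6 family of small GPI-anchored proteins, which sit in a cluster on chromosome 15. Ly6a lies on mm9 from 74825308 to 74828064 and Ly6c1 from 74875447 to 74879260, both on the minus strand and 47.4 kb apart. Ly6a is the stem-cell antigen Sca-1, and Ly6c1 is one of the genes behind the Ly6C antigen of monocytes and endothelium. Ly6a had 627 reads and an RPKM of 10.7 in supportive ISEMFs and 152 reads and an RPKM of 2.67 in non-supportive ISEMFs. It was 4.01-fold higher in supportive ISEMFs (3.35 to 4.82), a log2 ratio of 1.96, and moved from rank 5984 in non-supportive to rank 2183 in supportive ISEMFs. Ly6c1 had 10 reads in supportive and 1 in non-supportive ISEMFs, at an RPKM of 0.167 and 0.0171. Its ratio of 9.72 had an interval of 1.38 to 421.7, so its size is not known at this depth.

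Some Ly6 genes share long stretches of sequence, which bears on their counts because the authors kept reads with a unique position only. Global alignment of the annotated translations gave 67.2% identity between Ly6a and Ly6c1, with 90 of 134 aligned columns the same. Ly6c1 and Ly6c2 had 94.7%, with 124 of 131. Ly6a and Ly6c1 each hold 12 cysteines, in 134 and 131 residues. Of all 50-base windows within annotated exons, 87.2% occur once in the genome for Ly6a (586 of 672) and 69.4% for Ly6c1 (449 of 647), against 100% for each of the other 8 members. Ly6c1 shared 198 windows with Ly6c2. Ly6a shared 11 with Ly6c1, 10 with Ly6i and 3 with Ly6c2, and most of its repeated windows were found in no other annotated gene. The stretch below, at chr15:74877783-74877899 of mm9 and read 5′ to 3′ on the minus strand, is 117 bases of Ly6c1 coding sequence. All of its 50-base windows also occur within the span of the Ly6c2 gene. The stretch is shown because a read of 50 bases from it has no unique place.
Ly6c1: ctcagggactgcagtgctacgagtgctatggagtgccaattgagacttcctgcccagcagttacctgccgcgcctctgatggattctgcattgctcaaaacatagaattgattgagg
Ly6c2 itself had 0 reads in both libraries. The RPKM of Ly6c1, and to a lesser degree that of Ly6a, therefore counts only reads from the parts of the gene that are unique.

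No other expressed family member was past 2-fold higher with Ly6a. Of 18 listed Ly6/uPAR genes, 4 reached an RPKM of 1, 0 were past 2-fold higher and 3 were lower. Plaur, the urokinase receptor, was at 5.29 in supportive and 20.3 in non-supportive ISEMFs. Cd59a, an inhibitor of complement lysis, was at 2.73 and 5.73, and Ly6e was at 2.82 and 6.56. Lynx1 was level at 5.06 and 5.33. A further 9 genes of the family, among them Ly6d, Ly6g and Ly6i, had 0 reads in both libraries.

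Ly6a is known to be induced by interferons, and most listed interferon-stimulated genes were higher in the same library. Of 10 such genes, 7 reached an RPKM of 1 and all 7 were past 2-fold higher in supportive ISEMFs, with a summed RPKM of 53.4 in supportive and 6.57 in non-supportive ISEMFs. Isg15, a ubiquitin-like modifier, was at 14.2 and 0.267, and Ifit1, which binds viral RNA, at 6.62 and 0.352. Bst2, a surface protein that tethers virus particles, was at 10.2 and 1.98, a ratio of 5.17 (4.19 to 6.44). Below an RPKM of 1 in both libraries, Irf7 had 116 reads in supportive and 28 in non-supportive ISEMFs, and Ifi44 had 354 and 47. Rsad2 went the other way with 19 and 57 reads, 3.09-fold lower in supportive ISEMFs (1.81 to 5.5). The link between the interferon-stimulated genes and Ly6a was not tested.

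**Figure D2:**
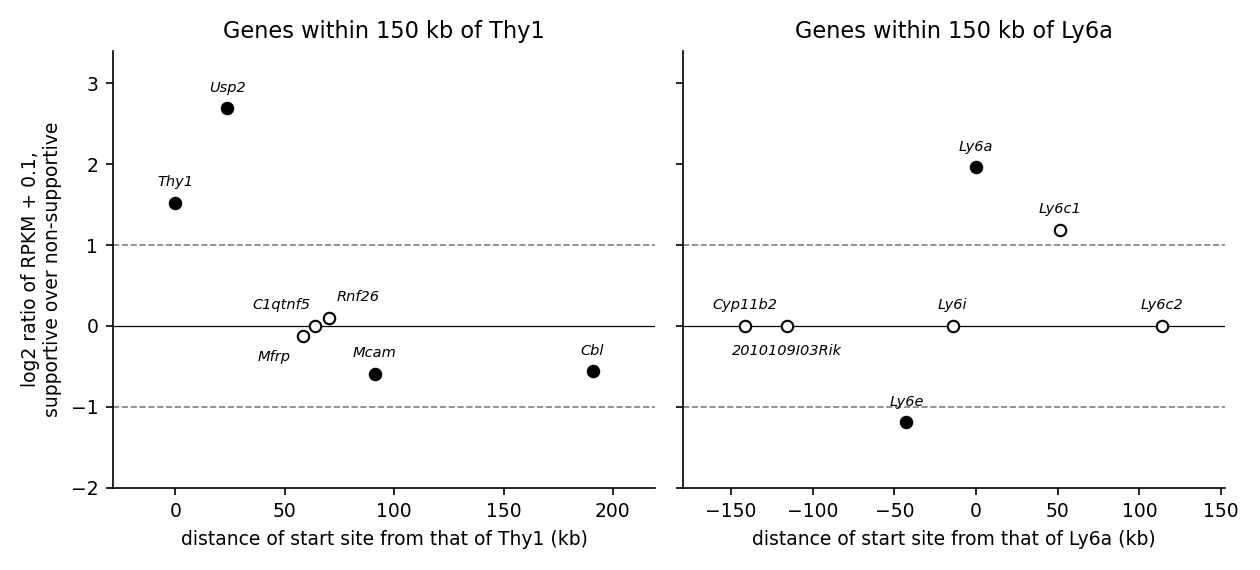
Log2 ratio of RPKM + 0.1 for protein-coding genes whose nearest end lies within 150 kb of Thy1 (left) or Ly6a (right), against the distance of their start sites in kb, with open points for genes below an RPKM of 1 in both libraries and dashed lines at 2-fold. Usp2 at 2.69 stands beside Thy1 at 1.52, while Mcam at -0.59 and Ly6e at -1.19 lie below 0.

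Thy1 and Mcam are neighbours on chromosome 9, 85.9 kb apart and on the same strand, but they differed in opposite directions. Between them lies Usp2, a deubiquitinase gene, with 870 reads and an RPKM of 2.78 in supportive ISEMFs and 105 reads and an RPKM of 0.345 in non-supportive ISEMFs, a log2 ratio of 2.69. Usp2 overlaps the annotated Rnf26 on the other strand, and the library kit does not mark strand. Cbl, beyond Mcam, was at 9.29 and 13.8, a log2 ratio of -0.56 close to the -0.59 of Mcam. Within 150 kb of any member, 52 other protein-coding genes were listed and 17 reached an RPKM of 1. Usp2 was the only one past 2-fold higher and Ly6e, in the cluster of Ly6a, the only one past 2-fold lower. Over all 10086 expressed genes, 9.01% were past 2-fold higher and 9.27% lower, so nothing particular to the neighbours can be read from these counts.

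Cd81, a tetraspanin that organises other membrane proteins, was the second most abundant marker in both libraries. Its 8 exon blocks span 150238644 to 150253839 of mm9 chromosome 7, plus strand. Its 11296 reads in supportive ISEMFs made an RPKM of 54.8, beside 16211 reads and 80.9 in non-supportive ISEMFs. The level was 1.48-fold lower in supportive ISEMFs (1.44 to 1.51), a log2 ratio of -0.56. This is more than counting error and less than 2-fold.

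Other tetraspanins and the partners of Cd81 went both ways. Of 14 listed genes, 10 reached an RPKM of 1, 3 were past 2-fold higher in supportive ISEMFs and 2 were lower. The higher genes were partners, namely Ifitm3, an interferon-induced antiviral protein, at 353.8 in supportive and 140.1 in non-supportive ISEMFs, Ptgfrn at 18.6 and 8.82, and Igsf8 at 2.60 and 1.20. The lower genes were tetraspanins. Cd151, which binds laminin-receptor integrins, was at 14.02 and 35.2, and the leukocyte tetraspanin Cd53 was at 2.61 and 5.62. Cd63, a tetraspanin of late endosomes, was at 154.0 and 111.4, not past 2-fold.

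Mcam, an adhesion molecule of the immunoglobulin superfamily also called CD146, followed Cd81 in level and in ratio. The locus spans 43942552 to 43950810 on the plus strand of mm9 chromosome 9, and its exons form 16 blocks. Its 10890 reads gave an RPKM of 29.7 in supportive ISEMFs, and its 15924 reads an RPKM of 44.7 in non-supportive ISEMFs. It was 1.51-fold lower in supportive ISEMFs (1.47 to 1.54), a log2 ratio of -0.59.

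Pericytes, the mural cells that Mcam is best known from, were represented by 8 genes, which did not all follow Mcam. Of these, 5 reached an RPKM of 1, 2 were past 2-fold higher in supportive ISEMFs and 1 was lower. The receptor Pdgfrb was at 28.1 in supportive and 7.67 in non-supportive ISEMFs, a ratio of 3.66 (3.53 to 3.79), and Notch3 was at 2.38 and 0.158. Rgs5, a regulator of G-protein signalling, was at 0.578 and 2.37. The summed RPKM of the list was 36.9 in supportive and 15.2 in non-supportive ISEMFs, and 8.85 and 7.53 without Pdgfrb. Below an RPKM of 1, Lama4 had 27 and 556 reads and Abcc9 had 8 and 42, lower in supportive ISEMFs like Mcam.

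Pdpn, a mucin-like protein of fibroblasts and lymphatic endothelium also called gp38, differed least of the expressed members. On mm9, chromosome 4 holds it at 142857334 to 142889467 on the minus strand, in 6 exon blocks. Reads numbered 1275 in supportive ISEMFs, an RPKM of 9.40, and 1697, an RPKM of 12.9, in non-supportive ISEMFs. The level was 1.37-fold lower in supportive ISEMFs (1.27 to 1.47), a log2 ratio of -0.45. Of all expressed genes, 52.9% differed by less, which puts Pdpn near the middle of the transcriptome.

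Pdpn acts on the cell cortex through ezrin and moesin and binds Cd44, the hyaluronan receptor. Of 7 listed partners, 5 reached an RPKM of 1, 1 was past 2-fold higher in supportive ISEMFs and 2 were lower. The cortical linker ezrin (Ezr) was at 5.53 in supportive and 1.73 in non-supportive ISEMFs, while its relative moesin (Msn) was at 182.1 and 392.5. Cd44 was 5.55-fold lower in supportive ISEMFs (5.44 to 5.66). Clec1b, the platelet receptor of Pdpn, had 0 and 1 reads. Of the 4 lymphatic endothelial genes, whose summed RPKM was 1.502 in supportive and 4.26 in non-supportive ISEMFs, the regulator Prox1 was at 1.33 and 0.143 and the receptor Flt4 at 0.158 and 3.81. Their part in the Pdpn level was not tested.

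Eng, or endoglin, is a co-receptor for ligands of the TGF-beta family and one of the classical mesenchymal markers. Its 15 exon blocks span 32502115 to 32538189 of mm9 chromosome 2, plus strand. The supportive library gave it 1322 reads and an RPKM of 2.49, and 834 reads made 1.62 in non-supportive ISEMFs, the lowest of the 7 expressed members in both on the deposited exon lengths. It was 1.54-fold higher in supportive ISEMFs (1.41 to 1.68), a log2 ratio of 0.59. Eng thus differed by about as much as Mcam, in the other direction, on far fewer reads.

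The Eng pathway was read from 9 genes, of which 6 reached an RPKM of 1. The signalling receptors Tgfbr1 and Tgfbr2 were at 5.91 and 6.91 in supportive and at 10.4 and 5.35 in non-supportive ISEMFs, neither past 2-fold. Mmp14, the membrane protease that sheds endoglin, was past 2-fold higher at 86.1 against 42.6. Id1, a target of BMP signalling, was past 2-fold lower at 2.23 against 6.42. Its relative Id3 was at 17.6 and 24.8. The ligands Gdf2 and Bmp10 had 0 reads in both libraries.

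Nt5e, or CD73, converts extracellular AMP to adenosine and belongs to the mesenchymal panel. The locus spans 88222447 to 88266927 on the plus strand of mm9 chromosome 9, and its exons form 9 blocks. It had 20 reads in supportive and 49 in non-supportive ISEMFs, at an RPKM of 0.0782 and 0.197. The ratio was 2.52-fold lower in supportive ISEMFs (1.47 to 4.48), but both levels were below the minimum RPKM of 1 and the gene entered no count. The classical panel of Thy1, Eng and Nt5e was therefore unequal in both libraries, with Thy1 at the top of the transcriptome, Eng just above the minimum and Nt5e below it.

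Other genes of extracellular purine metabolism were also low. Of 13 listed genes, with Adora3 under 2 identifiers, 5 reached an RPKM of 1, 2 were past 2-fold higher in supportive ISEMFs and 0 were lower. The nucleoside transporter Slc29a1 was at 2.92 in supportive and 0.185 in non-supportive ISEMFs, a ratio of 15.8 (13.2 to 19.1), and the nucleotide pyrophosphatase Enpp3 was at 1.99 and 0.281. Enpp1, which makes AMP and pyrophosphate from ATP, was at 3.72 and 2.04. The adenosine receptor Adora2b was at 0.872 and 1.66. Below an RPKM of 1 in both libraries, Entpd1 had 5 reads in supportive and 192 in non-supportive ISEMFs, and Adora1 had 1 and 36. Entpd2, with 30 and 1 reads, and Adora2a, with 99 and 2, went the other way.

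Dpp4, the surface protease CD26 that marks a fibroblast progenitor in skin and fat, was at the detection floor. On mm9, chromosome 2 holds it at 62168130 to 62250288 on the minus strand, in 28 exon blocks. It had 2 reads in each library, at an RPKM of 0.00404 in supportive and 0.00415 in non-supportive ISEMFs. Both are under the floor of 3 reads, which corresponds to an RPKM of 0.00605 and 0.00623, so no ratio is given. Of 10 other peptidases of its family or of the cell surface, 5 reached an RPKM of 1, and Dpp7 was the only one past 2-fold, at 1.32 in supportive and 0.593 in non-supportive ISEMFs. The cytosolic relatives Dpp8, at 26.01 and 34.1, and Prep, at 19.6 and 18.8, were the most abundant, and Fap, the fibroblast activation protease closest to Dpp4, was at 0.195 and 0.147.

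Genes that accompany Dpp4 in progenitor fibroblasts of other tissues were not uniformly low. Of 10 such genes, 4 reached an RPKM of 1, 0 were past 2-fold higher in supportive ISEMFs and 2 were lower. Cd248, or endosialin, was level at 70.3 in supportive and 63.9 in non-supportive ISEMFs. Anxa3, an annexin, was at 27.5 and 84.1 and Sema3c, a secreted guidance cue, at 0.350 and 1.23. Procr, the protein C receptor, was at 13.2 and 26.4, just short of the limit on the RPKM + 0.1 scale. Pi16 had 31 reads in supportive and 2 in non-supportive ISEMFs.

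**Figure D3:**
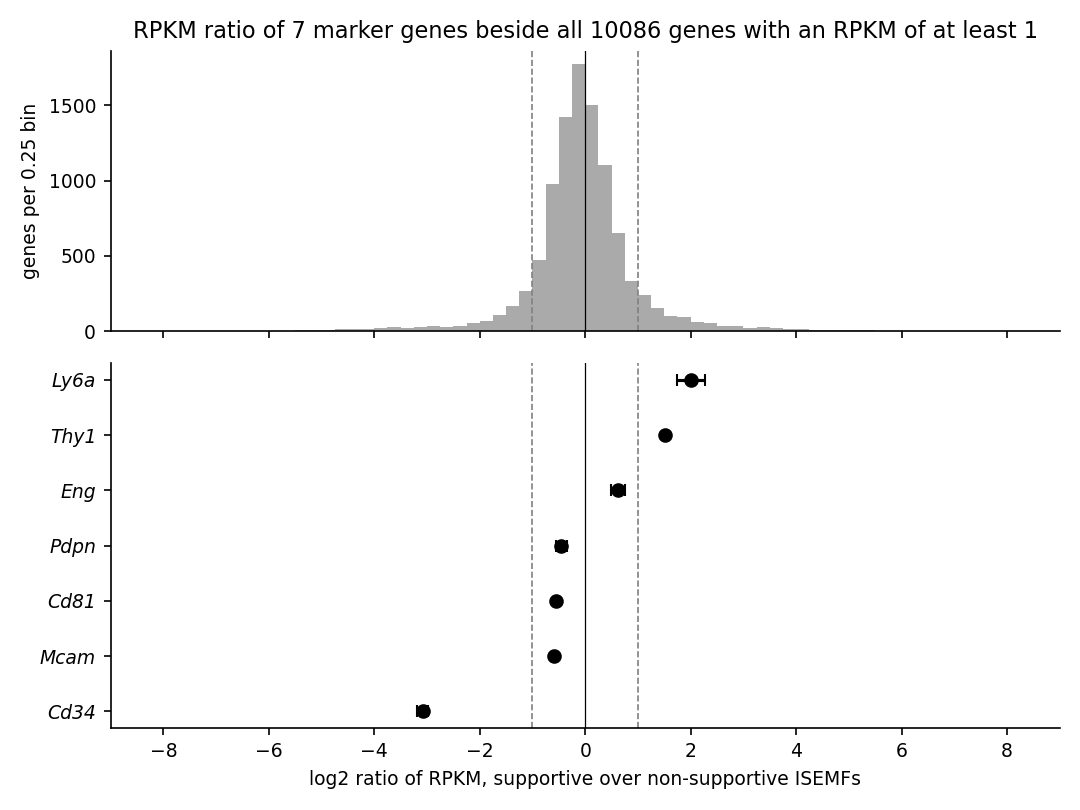
Log2 of the RPKM ratio of supportive over non-supportive ISEMFs for the 7 expressed markers (points, with exact 95% intervals from the reads, no value added), under the number of genes in each step of 0.25 in the log2 ratio of RPKM + 0.1 over all 10086 expressed genes. Cd34 (8.46-fold lower), Thy1 (2.87-fold higher) and Ly6a (4.01-fold higher) lie past the dashed 2-fold lines, and Cd81, Mcam, Pdpn and Eng lie between them.

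Set side by side on the RPKM scale, the markers kept the same leaders and exchanged the middle of the order. Thy1, Cd81 and Mcam led in that order in both libraries. In supportive ISEMFs they were followed by Ly6a, Pdpn, Cd34, Eng, Ly6c1, Nt5e and Dpp4, and in non-supportive ISEMFs by Cd34, Pdpn, Ly6a, Eng, Nt5e, Ly6c1 and Dpp4. Cd34 and Ly6a thus traded places around Pdpn. In supportive ISEMFs the counting intervals of Ly6a (9.89 to 11.6) and Pdpn (8.89 to 9.93) overlapped only at their ends. Those of Ly6c1 and Nt5e overlapped as well. In non-supportive ISEMFs the intervals of Ly6c1 and Dpp4 overlapped. Such overlap does not show that levels are equal, and the difference between genes was not tested. The RPKM of Thy1 was 6.28 times that of Cd81 in supportive and 1.48 times in non-supportive ISEMFs, and 11.6 and 2.68 times that of Mcam.

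**Figure D4:**
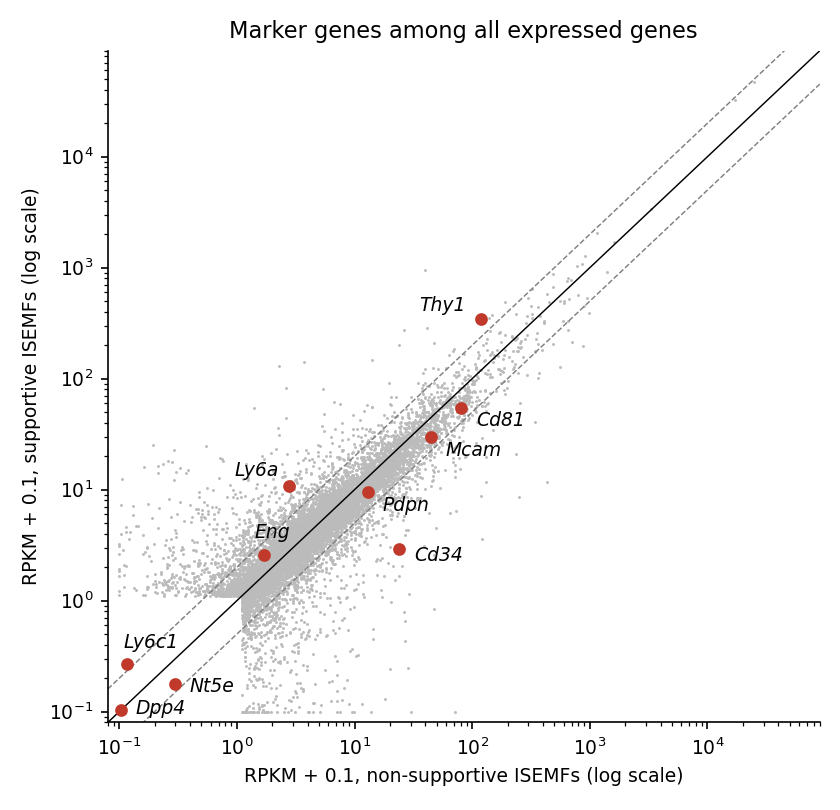
RPKM + 0.1 of each gene in supportive against non-supportive ISEMFs on log axes, with expressed genes in grey, markers in red, a solid line at equality and dashed lines at 2-fold. Cd81, Mcam, Pdpn and Eng lie inside the dashed lines with most genes, and Thy1, Ly6a and Cd34 lie outside.

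Levels between genes rest on the exon lengths in the deposited table. These equal the GENCODE vM1 exon lengths for Thy1, Ly6a, Ly6c1 and Nt5e. They are longer for the other 6, at 3978 against 2621 bases for Cd34, 7425 against 3870 for Eng and 5125 against 3350 for Mcam, so the RPKM of those genes would be higher on the annotation's lengths. There Eng would be at 4.78 in supportive ISEMFs, above Cd34 at 4.29, and at 3.10 in non-supportive ISEMFs, above Ly6a at 2.67. The ratio between libraries does not depend on the length. Cd34, Cd81, Eng, Dpp4 and Mcam share between 17 and 232 exon bases with other annotated genes, and reads there cannot be assigned to one gene.

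The proteins differ in make-up as well as in level. From the annotated translations, Cd34 has 382 residues with 10 N-glycosylation sequons, and serine and threonine, the sites of O-glycans, make 24.3% of it, the highest share of the 10. Thy1 has 162 residues with 4 sequons, Pdpn 172 residues with 1 sequon and 0 cysteines, and Cd81 236 residues with 12 cysteines. Eng and Mcam are larger, at 653 and 648 residues with 6 sequons each, and Nt5e and Dpp4 have 576 and 760.

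Listed markers of mesenchymal stem cells outside the 10, surface proteins except for Nes, were mostly lower in supportive ISEMFs. Of 11 such genes, 8 reached an RPKM of 1, 1 was past 2-fold higher and 5 were lower. Over all 10086 expressed genes the shares were 9.01% and 9.27%. The list is small and was chosen with earlier results of these data known, so it is no independent check. The higher gene was Pdgfrb. The lower ones were Itgb1, the beta-1 integrin, at 271.9 in supportive and 658.5 in non-supportive ISEMFs, Cd44, the intermediate filament gene Nes at 6.02 and 42.5, the receptor Pdgfra at 3.37 and 12.1, and the adhesion molecule Alcam at 1.72 and 5.59. Vcam1 was at 63.8 and 36.7, not past 2-fold. The PDGF receptors Pdgfrb and Pdgfra thus differed in opposite directions.

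Listed genes of gut fibroblast subsets, not only of those that Cd34, Cd81 and Pdpn mark, numbered 10. Of these, 5 reached an RPKM of 1, 1 was past 2-fold higher in supportive ISEMFs and 3 were lower. Grem1, the BMP antagonist made by Cd81-positive cells below the crypts, was at 8.48 in supportive and 251.6 in non-supportive ISEMFs. It was 29.6-fold lower in supportive ISEMFs (28.5 to 30.9). F3, or tissue factor, was at 42.4 and 85.0, 2.01-fold lower in supportive ISEMFs (1.96 to 2.06) and just past the limit. The chemokine-binding receptor Ccrl1 is listed under 2 identifiers, both counted among the 10, of which one was at 6.79 and 0.812 and the other had 9 and 12 reads. Foxl1, a marker of subepithelial telocytes, had 1 and 0 reads.

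**Figure D5:**
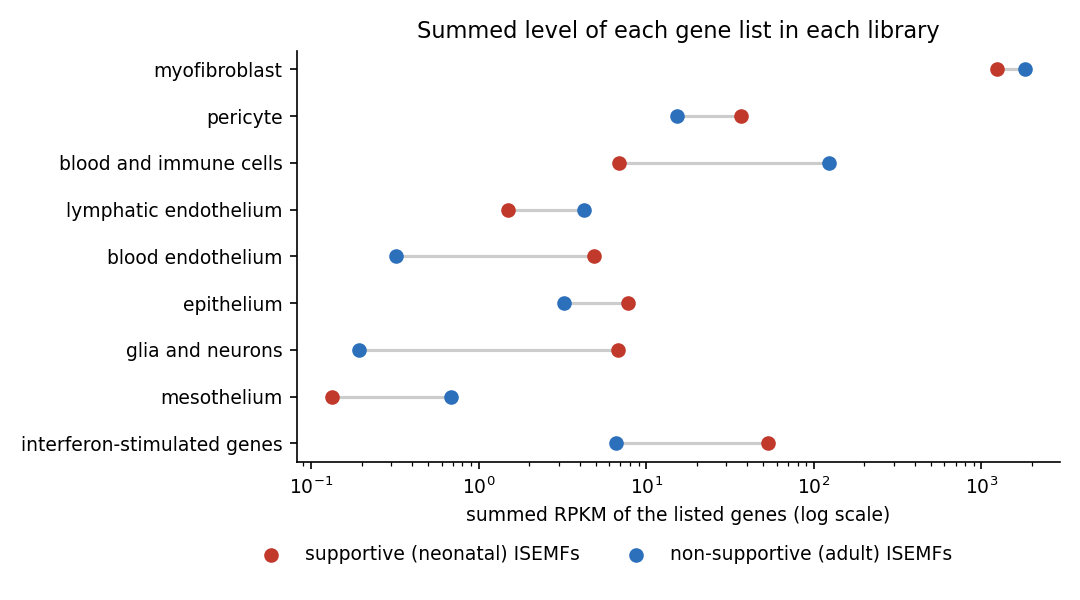
Summed RPKM (log scale) of marker lists of cell types, and of interferon-stimulated genes, in the libraries of supportive and non-supportive ISEMFs. Blood and immune genes are at 6.86 in supportive and 122.6 in non-supportive ISEMFs, interferon-stimulated genes at 53.4 and 6.57, pericyte genes at 36.9 and 15.2, and myofibroblast genes at 1233 and 1821.

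Markers of the remaining cell types that could share these cultures were low or rested on single genes. The 7 epithelial genes summed to an RPKM of 7.75 in supportive and 3.25 in non-supportive ISEMFs, but Epcam had 0 and 5 reads, and Cdx1 and Cdx2 had 0 in both. Lgr5, at 7.22 against 0.00443, made most of the first sum, and Krt20, a keratin of differentiated epithelium, at 0.0799 against 3.13, most of the second. Without both, the sums were 0.451 and 0.113. The 6 glial and neuronal genes summed to 6.75 and 0.194, of which S100b was 6.69 and 0.116, and Sox10 had 0 reads in both. This bears on Thy1, which neurons also carry. The 6 mesothelial genes summed to 0.133 and 0.682. The part of any of these cells in the marker levels was not tested.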

How the data were processed

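RNA of both ISEMF cultures was extracted with an RNeasy kit and made into TruSeq libraries. The authors sequenced 50-base single reads, aligned them to mm9 with TopHat2 2.0.4, kept unique hits and counted reads per gene with HTSeq 0.5.4p3, per the labels and the study's methods. The deposited counts are raw, 1 whole number of reads for each gene. The deposited RPKM values were made by the authors from these counts, the exon length and the library size. Columns with the authors' log2 ratio and DESeq p-values, and a table of Wnt pathway genes that holds no member, were not used.

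Libraries were matched to groups by their titles. Ratios, Clopper-Pearson intervals and ranks were computed in Python 3.11.15 with scipy 1.17.1. Neither edgeR nor DESeq2 can estimate variation from 1 library a group, so no count test was run. edgeR 4.0.16 gave TMM factors for an alternative. The steps were tested on simulated data. No ratio was given where both libraries had 3 reads or fewer.

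Coordinates, exon windows and protein translations came from GENCODE vM1 on the same build as the files. Proteins had been planned from RefSeq, and the annotated translations took their place. Alignments used BLOSUM62 with gap penalties of 11 and 1. Promoters came from RefSeq on GRCm38.p6. The members and the 20 gene lists were chosen with earlier results of these data known. Named genes are all members and, per list, up to 4 genes, those past 2-fold first and then those with the highest RPKM, with cell type markers at 0 and neighbours past 2-fold. Tgfbr2, Pi16, Clec1b, Fap, Ly6c2, Ly6d, Ly6g, Ly6i, Igsf8, Cd63, Alcam, Vcam1, Foxl1, Rnf26, Cbl, Kdr, Tek, Plvap, Lama4, Abcc9 and Adora3 were named outside this rule after their values were seen. The same holds for Rsad2, Irf7, Ifi44, Entpd1, Entpd2, Adora1 and Adora2a.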

Additional observations from a re-analysis of the deposited data

How the results depend on the processing

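The alternatives were TMM factors, library sizes without mitochondrial genes, a median log2 ratio of 0, added values of 0.001 and 1, a 4-fold threshold, and an RPKM limit of 5 or none. Of 50 single-member log2 ratios under the scalings and added values, 38 moved by less than their counting interval, 12 moved by more, and the sign held for each member except Dpp4, which lay at 0. The count of members past 2-fold, 3, stayed at 3 except for 1 (Cd34) past 4-fold, where Ly6a fell short only with 0.1 added to its RPKM values, and 4 with no minimum, which adds Ly6c1. The median log2 ratio of members, -0.45, became -0.33 without mitochondrial genes in the library size and -0.23 with no minimum. The first scaling moved the median of all genes from -0.07 to 0.04. Counts over all lists, 49 past 2-fold, became 28 past 4-fold and 32 with an RPKM limit of 5. No paired analysis was possible because each population had 1 library, and for the same reason no library could be left out. Exon lengths of the annotation, an alternative chosen after seeing the data, raised the levels of 6 members. Depth limits Dpp4, Ly6c1 and Nt5e, which had between 4 and 69 reads in both libraries together.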
